A study of Homo sapiens with 21 samples.

Results

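The transcripts compared here are those of MDA-MB-453 cells, a human breast cancer line of wild-type genotype, given cadmium in the absence or the presence of DES (diethylstilbestrol), a synthetic estrogen that also acts as an inverse agonist of the estrogen-related receptors. The question was which transcripts respond to cadmium differently once DES is present. Of the 21 RNA-seq libraries of the series, 12 entered the comparison, 3 in each of 4 groups: control (no treatment), cadmium (10 µM for 24 h), DES (10 µM for 24 h), and DES with cadmium. All cells were kept for 24 h in IMEM lacking phenol red, with 5% charcoal-stripped serum before treatment. Cadmium was given in IMEM with the serum lowered to 1%, and in the combined group DES was added 3 h ahead of the metal. The study's methods name this medium or one free of serum for any treatment, and neither they nor the labels say which the control and DES alone received, so serum and cadmium cannot be told apart, and neither can the longer time with DES and the metal. Genes with a mean FPKM (fragments per kilobase of gene, scaled to sequencing depth) of at least 0.5 over the 12 libraries were kept, which gave 14793 of 58735 genes. For each of them the interaction was the cadmium effect with DES (DES with cadmium minus DES) minus the cadmium effect without it (cadmium minus control), both on log2(FPKM + 0.1). On this scale the changes of low genes are understated, except in short genes near 0 fragments, where the pseudocount is worth less than 1 fragment and the changes come out large.

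Cadmium is a divalent metal that displaces zinc from proteins and binds thiols. Cells answer it with metallothioneins, small cysteine-rich proteins that hold zinc, copper and cadmium and whose genes are turned on by the metal-responsive factor MTF1, with heat shock chaperones, which refold damaged proteins, and with the NRF2 genes, which make glutathione and reduce oxidants. A response was called kept where cadmium moved the gene in the same direction with DES, lost where the effect with DES no longer passed the test and the interaction opposed the response, reversed where DES with cadmium differed from DES in the opposite direction, and gained where cadmium had no effect that passed without DES but did with it, the interaction passing too. Responses to cadmium that met none of the first 3 rules are given as undecided.

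The libraries held 14435925 to 28424805 fragments on genes, with a median of 18321430. All 10 luminal breast cancer markers looked at, ERBB2, GATA3 and KRT19 among them, were in the genes tested. Of the 12 markers of immune, stromal, endothelial and basal cells, 11 were under the filter. The spread within a group differed: the median SD over genes was 0.217 in control, 0.352 with cadmium, 0.353 with DES and 0.523 with DES and cadmium. The share of fragments on mitochondrial mRNAs was 6.49 to 7.14% in control, 5.89 to 7.92% with cadmium, 1.78 to 2.51% with DES and 0.783 to 3.56% with DES and cadmium. The part of this shift in the results was not tested. Nothing in the labels says that the 3 libraries of a group came from separate cultures, so p-values measure the spread between these libraries only.

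The effect of cadmium differed with DES for 171 genes (1.16% of those tested, limma with Benjamini-Hochberg adjusted p under 0.05), being lower with DES for 137 (0.926%) and higher for 34 (0.23%). Under quantile normalization, where the median interaction of all genes was 0.12 in place of -0.10, the split was 61 higher and 90 lower of 151. With the replicate number as a block it was 70 higher and 219 lower of 289, and the genes described below whose interaction this called or lost are given with that value. With the values scaled by total fragments the median was -0.24. In each named call below the direction was the same under every scaling tried. At an unadjusted p under 0.05 the interaction was lower for 1768 genes (12%) and higher for 1008 (6.81%), together 18.8% of those tested, and under quantile normalization the order turned, with 1327 lower and 1658 higher. By comparison, cadmium alone passed the adjusted threshold for 174 higher (1.18%) and 124 lower genes (0.838%), together 2.01%, and cadmium with DES for 34 higher (0.23%) and 294 lower (1.99%), together 2.22%. At the unadjusted threshold cadmium passed as higher for 9.75% and as lower for 8.92%, and cadmium with DES as higher for 4.56% and as lower for 11.3%, together 15.9%. Under quantile normalization these were 1563 higher and 1840 lower for cadmium, and 1329 higher and 1251 lower for cadmium with DES, so both orders turned. DES against control passed for 20.4% at the adjusted threshold (11.7% higher, 8.71% lower) and for 34.9% at the unadjusted one (19.3% higher, 15.5% lower). Lower calls outnumbered higher ones for DES under other scalings, 1621 against 1311 at the adjusted threshold with total fragments and 2104 against 1673 with quantiles. The libraries of cadmium and control did not overlap for 34.5% of genes, nor those of DES with cadmium and DES for 16.4%. The count of 171 rested on single libraries: it was 10 without DES replicate 2, and 410 without DES with cadmium replicate 2. It fell to 23, 48 and 38 without control replicates 1, 2 and 3, to 28 and 58 without cadmium replicates 2 and 3, and to 32 without DES replicate 3, and it was 320 without cadmium replicate 1.

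The genes were chosen on the difference of both cadmium effects, which by itself favours opposite signs of these effects, so the following counts are a description. Among the 137 with a lower effect, cadmium alone had a positive difference in 130 and cadmium with DES a negative one in 130, and DES itself raised 100 at the adjusted threshold. Of the 137, 65 were protein coding, against 74.2% of all genes tested, and 36.5% were antisense, intergenic or intronic RNAs, a class that made up 11.9% of all genes tested. Among the 34 with a higher effect 33 were protein coding, 33 had a negative difference with cadmium alone, and 30 a positive one with cadmium and DES. DES raised none of the 34 and lowered 9, and over all genes it raised 11.7% and lowered 8.71%. The DES libraries enter the effect of DES and the effect of cadmium with DES with opposite signs, so these counts are not independent.

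**Figure D1:**
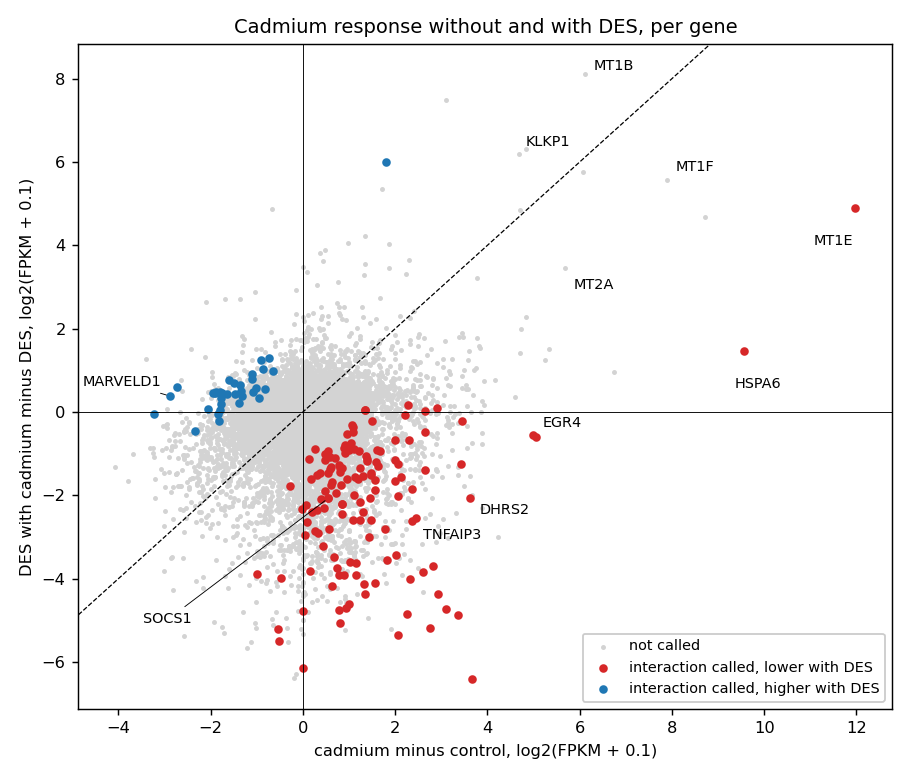
Each point is 1 of the 14793 genes, with the effect of cadmium without DES on the horizontal axis and with DES on the vertical axis, both as differences of log2(FPKM + 0.1) between means of 3 libraries. The dashed line marks equal effects. Red points are the 137 genes with a lower effect with DES, most of them under the zero line on the vertical axis, and blue points the 34 with a higher one, most of them left of the zero line on the horizontal axis.

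Sorted at an unadjusted p under 0.05, the 2762 genes that cadmium moved without DES (18.7% of those tested) gave 182 kept responses (1.23% of genes tested), 1087 lost (7.35%), 224 reversed (1.51%) and 1269 undecided (8.58%), and a further 1048 genes were gained (7.08%). Of the lost, 515 were rises and 572 falls. Of the reversed, 172 had risen with cadmium alone and 52 had fallen, and of the gained, 863 fell with DES and cadmium and 185 rose. These splits moved with the scaling and the filter. Under quantile normalization there were 476 lost rises and 903 lost falls, 128 and 113 reversed, and 376 gained rises and 582 gained falls. Scaling by total fragments gave 67 gained rises and 1056 gained falls and turned the kept responses from 99 rises and 83 falls to 41 and 167, and with no filter there were 1245 lost rises and 635 lost falls. At the adjusted threshold 10 of the 298 cadmium responses were kept (0.0676%), 52 lost (0.352%), 10 reversed (0.0676%) and 226 undecided (1.53%), and 83 genes were gained (0.561%). With all 7 groups in one fit 363 were lost and 290 gained, and with no filter 19 and 37. Gained genes were 230 with a pseudocount of 1 and 29 at a mean FPKM of at least 2. The counts at the adjusted threshold rested on single libraries as well. With 1 library left out, kept ran from 4 (without DES replicate 2) to 19 (without cadmium replicate 1), and gained from 3 (without DES replicate 2) to 204 (without DES with cadmium replicate 2). Lost genes numbered 0, 9 and 6 without control replicates 1, 2 and 3, 172, 3 and 9 without the cadmium replicates, 58, 3 and 12 without the DES replicates and 55, 122 and 36 without those of DES with cadmium, each in that order. Cadmium minus control enters the interaction as well as the choice of responses, so the counts of lost and reversed genes are descriptions. At the unadjusted threshold the kept count was 119 and 117 without control replicates 1 and 2, 121 without cadmium replicate 2, 113 without DES replicate 2 and 296 without DES with cadmium replicate 1. The reversed count was 145 without control replicate 1, control replicate 2 or cadmium replicate 2, and 131 and 146 without DES replicates 2 and 3, and the gained count was 692 without DES replicate 2.

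**Figure D2:**
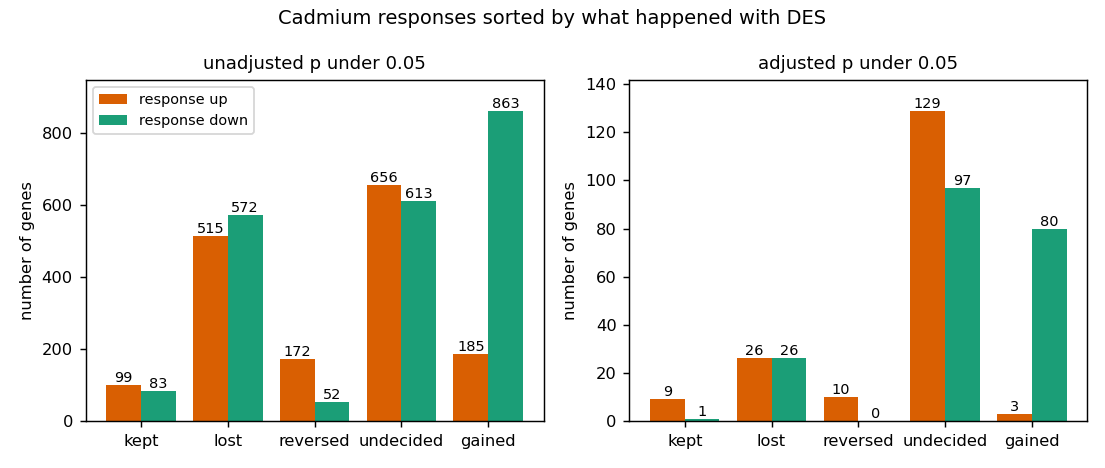
Bars count genes in each class at an unadjusted (left) and an adjusted (right) p under 0.05, with orange for responses up and green for responses down, the response being that to cadmium alone, or to cadmium with DES for gained genes. At the adjusted threshold the lost class holds 26 genes in each direction, the reversed class 10 up and 0 down, and the gained class 3 up and 80 down.

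The kept responses were led by metallothioneins. Of the 12 genes of the list 10 were tested, and 6 of them were kept at the unadjusted threshold, 5 also at the adjusted one (MT2A, MT1E, MT1F, MT1X and MT1B). Over all genes tested 1.23% and 0.0676% were kept at these thresholds. The sixth was MT4. The median difference of the list, with genes at the limit of detection set to their lower bound, was 5.68 without DES and 4.27 with it, against 0.05 and -0.04 over all genes tested. Genes with at most 3 fragments in every library of both groups compared were left out of that median. MT1H, MT1L and MT1M therefore enter only the median with DES, and both medians do not cover the same genes. The interaction was negative and passed as lower at the unadjusted threshold for MT2A, MT1E and MT1X, 3 of the 10, beside 12% over all genes. MT1G, MT1H, MT1L and MT1M were near 0 fragments in the other groups and passed the filter on low values only through DES with cadmium, mostly its replicate 3, so nothing is read from their positive interactions. These genes are near copies of each other, so fragments may be shared out between them. Their promoters are known for metal response elements, short sites bound by MTF1, and the promoters of MT2A (chr16:56608334-56608633) and MT1X (chr16:56682220-56682519, both on the plus strand, GRCh38.p14, RefSeq) are shown with each match to TGCACNC or TGCGCNC, on either strand, in capitals. They run 5′ to 3′ from 250 bases before the start of the gene in RefSeq to 50 after it. For both genes that start lies downstream of the one in the deposited files, which for MT2A places the whole stretch within the gene.
MT2A: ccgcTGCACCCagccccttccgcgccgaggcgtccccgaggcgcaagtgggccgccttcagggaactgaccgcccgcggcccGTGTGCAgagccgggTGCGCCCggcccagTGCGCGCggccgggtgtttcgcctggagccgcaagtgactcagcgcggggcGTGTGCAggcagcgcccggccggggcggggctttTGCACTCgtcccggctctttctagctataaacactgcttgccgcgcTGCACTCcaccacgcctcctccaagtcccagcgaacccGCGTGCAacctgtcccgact
MT1X: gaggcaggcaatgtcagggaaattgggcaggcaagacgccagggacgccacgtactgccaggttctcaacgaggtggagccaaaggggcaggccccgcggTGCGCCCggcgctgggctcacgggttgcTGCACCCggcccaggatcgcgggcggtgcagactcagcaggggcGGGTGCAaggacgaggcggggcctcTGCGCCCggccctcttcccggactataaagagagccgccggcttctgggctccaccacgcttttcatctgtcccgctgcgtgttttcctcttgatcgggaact

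MT2A held 8 such matches and MT1X 4. Over 35116 promoters of this length, 29.6% held at least 1 and 2.3% held 3 or more. All 5 metallothionein promoters in the table (MT1B, MT1H, MT1X, MT2A and MT4) held 3 or more. MT1E, MT1F, MT1G, MT1L, MT1M and MT1A had no entry. A match is a run of letters and not a binding site.

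MT2A, on chromosome 16 from 56608199 to 56609497, was the most abundant of them. It measured 62.0, 24.1 and 92.7 FPKM in the control libraries, 2001.5, 2287.8 and 4088.4 with cadmium, 297.4, 336.4 and 791.9 with DES, and 10176.1, 1839.7 and 5492.8 with both. Cadmium raised it without and with DES, and the groups overlapped in neither comparison. The difference was 5.68 ± 0.67 (SE, adjusted p = 0.00523) without DES and 3.45 ± 0.67 (adjusted p = 0.0242) with it, and DES alone stood 3.05 ± 0.67 above control (adjusted p = 0.00982, limma, n = 3 per group). Its interaction of -2.23 ± 0.94 did not pass (adjusted p = 0.234). MT1F went from 1.52, 1.203 and 3.01 FPKM in control to 351.6, 437.0 and 565.0 with cadmium, and from 8.42, 7.94 and 22.4 with DES to 1922.2, 127.1 and 690.7 with both. Its rise of 5.58 ± 0.79 with DES (adjusted p = 0.00796) passed without each of the 12 libraries in turn, and its interaction was -2.30 ± 1.12 (adjusted p = 0.295). MT1X behaved alike in order, with an interaction of -4.05 ± 1.24 (adjusted p = 0.119).

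MT1E was the one metallothionein whose effect of cadmium passed as smaller with DES. In control its 3 libraries held at most 4 fragments (0.118, 0 and 0 FPKM), with cadmium it measured 414.1, 466.0 and 739.7 FPKM, with DES 10.0, 9.90 and 23.0, and with both 1433.1, 97.2 and 444.2. The ranges with cadmium overlapped with and without DES, and those of control and DES did not. The difference made by cadmium was 11.98 ± 0.77 without DES and 4.90 ± 0.77 with it (adjusted p = 7.53e-05 and 0.0103), and the interaction was -7.08 ± 1.09 (adjusted p = 0.0175). With control near 0 its size depends on the pseudocount. Going the other way, MT1B, at 0 fragments in control, measured 3.76, 10.9 and 7.69 FPKM with cadmium and 105.0, 8.16 and 139.3 with both, at least 20.4-fold higher than control and at least 202-fold higher than DES against a floor of 3 fragments per library. The interaction of MT1B was not separable from 0 (adjusted p = 0.46). The 95% interval of the interaction ran from -4.30 to -0.17 for MT2A and from -4.75 to 0.15 for MT1F.

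Outside the metallothioneins, SLC30A1, which exports zinc from the cell and is another target of MTF1, was kept. It measured 6.16, 3.23 and 7.40 FPKM in control, 30.7, 84.0 and 156.7 with cadmium, 17.7, 22.6 and 32.4 with DES and 235.1, 122.7 and 372.5 with both. The difference was 3.78 ± 0.57 without DES (adjusted p = 0.012) and 3.22 ± 0.57 with it (adjusted p = 0.0169), with an interaction of -0.56 (95% interval -2.33 to 1.21). It was the only gene called in either cadmium comparison among the 18 zinc transport genes tested. The intergenic RNA AC108134.2 was raised by 6.07 ± 0.68 without DES and 5.76 ± 0.68 with it (adjusted p = 0.00514 and 0.00336), with an interaction of -0.30 (95% interval -2.40 to 1.80), and this second call was made without each of the 12 libraries in turn. KLKP1, a transcribed pseudogene of the kallikrein family, was absent from the control fragments, measured 0.518, 1.85 and 14.1 FPKM with cadmium, and 22.8, 15.99 and 22.2 with both. CBX6, a Polycomb protein that reads methylated histone H3, was the 1 fall kept at the adjusted threshold, from 19.3 to 21.97 FPKM in control to 7.40 to 10.8 with cadmium, and from 26.3 to 36.5 with DES to 10.7 to 18.3 with both. Its effects were -1.19 ± 0.24 and -1.16 ± 0.24 (adjusted p = 0.0309 and 0.0277). It and the metallothionein pseudogene MT2P1, also kept, were named after their values were seen. Among the falls kept only at the unadjusted threshold, HMGB1, a chromatin protein, gave -1.47 ± 0.36 and -0.97 ± 0.36, and PLCD4, a phospholipase C, -1.62 ± 0.23 and -0.52 ± 0.23.

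**Figure D3:**
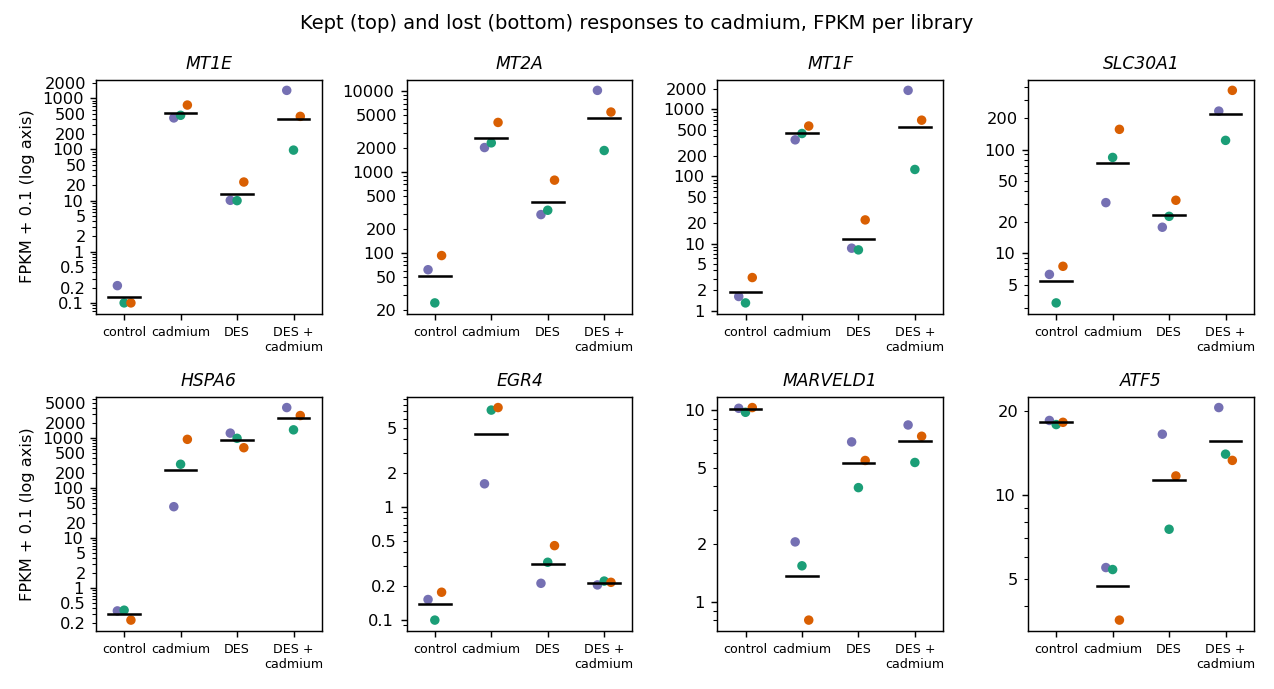
FPKM + 0.1 on a log axis in each of the 12 libraries for 4 genes with a kept response (top row) and 4 with a lost response (bottom row), with replicates 1, 2 and 3 in purple, green and orange and the bar at the mean of the logarithms. In the top row cadmium is above its own reference in both pairs, while in the bottom row DES and DES with cadmium overlap for EGR4, MARVELD1 and ATF5.

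Lost rises were led by HSPA6, an inducible HSP70 chaperone that is nearly silent in unstressed cells, on chromosome 1 from 161524540 to 161526910. It measured 0.248, 0.260 and 0.128 FPKM in control, 42.3, 300.3 and 947.1 with cadmium, 1261.6, 993.2 and 643.9 with DES and 4099.3, 1467.8 and 2837.2 with both. Every library with DES and cadmium was above every library with DES, but the difference of 1.47 ± 0.86 did not pass (adjusted p = 0.439), against 9.55 ± 0.86 for cadmium alone (adjusted p = 0.00135) and 11.57 ± 0.86 for DES alone (adjusted p = 3.53e-05). The interaction of -8.09 ± 1.21 passed (adjusted p = 0.0175), also in 8 of the 12 fits with 1 library left out. The level with both stood 3.49 ± 0.86 above that with cadmium alone (adjusted p = 0.0123). The promoter of HSPA6 (chr1:161524290-161524589, plus strand, GRCh38.p14, RefSeq) is shown 5′ to 3′, because this gene had the largest interaction of any protein-coding gene named, with matches to GAANNTTC, the core of the heat shock element, in capitals.
HSPA6: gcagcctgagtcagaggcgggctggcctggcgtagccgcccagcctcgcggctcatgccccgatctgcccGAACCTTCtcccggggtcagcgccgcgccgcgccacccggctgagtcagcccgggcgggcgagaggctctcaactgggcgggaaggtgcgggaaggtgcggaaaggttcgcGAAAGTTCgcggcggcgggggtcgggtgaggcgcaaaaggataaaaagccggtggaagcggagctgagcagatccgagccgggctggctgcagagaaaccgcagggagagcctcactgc

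HSPA6 held 2 matches to this motif. At least 1 was found in 6.77% of all promoters of this length and 2 or more in 0.393%, and in 37% and 17.4% of the 46 promoters of the heat shock list. HSPA1A and HSPA1B, the stress-induced HSP70 genes, are near copies of each other and had the same order of groups, with no interaction called, and HSPA1B counted as kept at the unadjusted threshold. HSPA1A measured 29.2, 34.4 and 44.1 FPKM in control, 111.0, 559.0 and 2130.5 with cadmium, 992.6, 858.2 and 955.8 with DES and 3026.6, 1590.9 and 4023.0 with both, with an interaction of -2.32 ± 1.13 (adjusted p = 0.296). Over the 32 heat shock genes tested, DES raised 21 at the adjusted threshold and cadmium 4, and cadmium with DES called 0, with 3 higher and 0 lower at the unadjusted one. Over all genes DES raised 11.7%, cadmium raised 1.18%, and cadmium with DES called 2.22%, with 4.56% higher and 11.3% lower at the unadjusted threshold. The median difference was 0.65 with cadmium alone and 0.35 with cadmium and DES. HSPA8, the constitutive HSP70, stood apart as a gain at the unadjusted threshold only: 295.1, 359.8 and 310.5 FPKM in control, 248.7, 276.7 and 558.7 with cadmium, 856.1, 678.5 and 751.3 with DES, and 2738.5, 1233.7 and 1648.4 with both. Its interaction was 1.15 ± 0.51 (adjusted p = 0.254).

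For other lost rises DES had set no comparable level. EGR4, an early growth response transcription factor, measured 0.0521, 0 and 0.0764 FPKM in control, 1.504, 7.09 and 7.47 with cadmium, 0.112, 0.225 and 0.356 with DES and 0.105, 0.121 and 0.116 with both. Only the cadmium libraries were high, and through them alone the gene passed the filter on low values, so the call on it is a description. The interaction was -5.56 ± 0.91 (adjusted p = 0.0215), and the effect of cadmium with DES was -0.56 ± 0.65 (adjusted p = 0.725). EDN1, the vasoconstrictor peptide endothelin, named after its values were seen, showed the same pattern at higher levels, with 4.20, 4.28 and 8.39 FPKM in control, 15.98, 37.1 and 17.2 with cadmium, 7.57, 6.43 and 9.71 with DES and 5.29, 4.08 and 5.23 with both (interaction -2.68 ± 0.50, adjusted p = 0.0335). The antisense RNA ZKSCAN7-AS1 was at the limit of detection in control, at 3.38, 7.22 and 14.8 FPKM with cadmium, and at 0.818, 0.633 and 0.362 with both (interaction adjusted p = 0.0226). It lies over other genes, and since the strand setting of the libraries is not clear its fragments may be theirs. Of the 515 rises lost at the unadjusted threshold DES raised 151 and lowered 15, and of the 26 lost at the adjusted threshold it raised 15, beside 11.7% raised and 8.71% lowered over all genes tested.

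GADD45G, a growth arrest gene induced by DNA damage, belonged to the former kind. It went from 1.94, 2.01 and 4.62 FPKM in control to 13.0, 44.7 and 118.6 with cadmium, and stood at 50.7, 50.04 and 56.9 with DES and at 76.1, 49.98 and 52.9 with both (interaction -3.76 ± 0.88, adjusted p = 0.0646, and 0.0476 with the replicate block). ADM, which encodes the peptide adrenomedullin, measured 0.87, 4.12 and 12.6 FPKM with cadmium, 31.5, 26.0 and 36.1 with DES and 12.1, 16.2 and 16.6 with both, against 0.296 to 0.490 in control. Its interaction was -4.02 ± 0.95 (adjusted p = 0.0648, and 0.0457 with the block). NFKB2, a subunit of NF-kappaB named after its values were seen, rose from 7.79 to 9.07 FPKM in control to 15.998 to 20.0 with cadmium and to 18.1 to 20.6 with DES, and was at 12.1 to 17.2 with both (interaction -1.44 ± 0.26, adjusted p = 0.0326). In several of these genes cadmium replicate 1 was the lowest of its group and nearest to control.

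Lost falls held 26 of the 34 called positive interactions. Of these 26 at the adjusted threshold DES lowered 5 and raised 0, beside 8.71% lowered and 11.7% raised over all genes tested. MARVELD1, a membrane protein with a MARVEL domain, measured 10.1, 9.64 and 10.2 FPKM in control, 1.95, 1.44 and 0.702 with cadmium, 6.72, 3.84 and 5.36 with DES and 8.26, 5.23 and 7.20 with both. Cadmium lowered it by -2.89 ± 0.34 without DES (adjusted p = 0.00523), the effect with DES was 0.38 ± 0.34 (adjusted p = 0.628), and the interaction was 3.27 ± 0.48 (adjusted p = 0.0145). ATF5, a transcription factor of the integrated stress response, measured 18.5, 17.8 and 18.2 FPKM in control, 5.40, 5.31 and 3.46 with cadmium, 16.5, 7.45 and 11.6 with DES and 20.5, 13.9 and 13.2 with both. Its interaction was 2.41 ± 0.42 (adjusted p = 0.0271), and it was the 1 member of its list to pass the unadjusted threshold as higher, against 8 as lower of 30, beside 6.81% and 12% over all genes. With total fragments these were 2 and 11, and under quantile normalization 2 and 10. PTGES2, a prostaglandin E synthase, differed from control by 0.00 ± 0.32 with DES, fell by 1.80 ± 0.32 on the log2 scale with cadmium alone (adjusted p = 0.0222), and differed by 0.48 ± 0.32 with cadmium and DES (interaction 2.27 ± 0.45, adjusted p = 0.0402). Each cadmium library of PTGES2 (9.75, 7.07 and 4.32 FPKM) was below each of the other 9, which lay between 19.6 and 44.2.

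KCTD17, an adaptor of ubiquitin ligases, had 3.52 to 4.04 FPKM in control, 0.671 to 1.12 with cadmium, 2.22 to 3.18 with DES and 3.31 to 4.08 with both (interaction 2.36 ± 0.35, adjusted p = 0.0153). P3H4, which takes part in collagen modification, had an interaction of 2.35 ± 0.36 (adjusted p = 0.0177), and DES lowered it by -1.29 ± 0.26 (adjusted p = 0.00635). GAMT, the last enzyme of creatine synthesis, measured 31.0, 26.1 and 27.8 FPKM in control, 9.43, 4.66 and 12.7 with cadmium, 61.5, 38.2 and 56.3 with DES and 76.6, 65.1 and 70.1 with both (interaction 2.23 ± 0.45, adjusted p = 0.0422). ITPKA, an inositol trisphosphate kinase, gave -2.35 ± 0.28 without DES and -0.46 ± 0.28 with it (interaction 1.89 ± 0.40, adjusted p = 0.0481, and 0.0562 with the replicate block). The interaction was also called for PRRT1B (3.19 ± 0.67, adjusted p = 0.0488) and for HNRNPA1L2 (3.33 ± 0.58, adjusted p = 0.0271), which resembles HNRNPA1 and may share its fragments. CCND3 (cyclin D3), IKBKE (a kinase of innate immune signalling) and BACE1 (an aspartyl protease), named after their values were seen, lost falls of -1.08, -1.47 and -1.78, with interactions of 1.57 ± 0.33, 1.91 ± 0.37 and 2.11 ± 0.39 (adjusted p = 0.0488, 0.038 and 0.0326). Of the 572 falls lost at the unadjusted threshold DES lowered 80 and raised 15, beside 8.71% lowered and 11.7% raised over all genes tested.

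Reversed responses at the adjusted threshold were 10 genes, all raised by cadmium alone, raised by DES alone, and lowered when cadmium followed DES. The count was 0 without cadmium replicate 2, 1 without control replicate 2, control replicate 3 or cadmium replicate 3, 2 without DES replicate 2 or 3, 4 without control replicate 1 and 5 without DES with cadmium replicate 3, and at most 15, without cadmium replicate 1. High values in the DES libraries favour both a rise with DES and a fall when cadmium follows it. That DES raised all 10 therefore carries no test, beside 11.7% raised over all genes tested. TNFAIP3, which encodes the ubiquitin-editing enzyme A20, a brake on NF-kappaB signalling, had the smallest p of any gene over 200 bases long. It lies on chromosome 6 from 137867188 to 137883312. It measured 0.0674, 0.0375 and 0.0240 FPKM in control, 0.446, 0.710 and 0.964 with cadmium, 4.90, 4.43 and 5.63 with DES and 0.862, 0.800 and 0.654 with both. No group overlapped another except cadmium and DES with cadmium, the range of the latter lying within that of the former. The effect of cadmium was 2.46 ± 0.35 without DES (adjusted p = 0.01) and -2.55 ± 0.35 with it (adjusted p = 0.00645), and the interaction of -5.00 ± 0.49 (adjusted p = 0.00367) was called without each library in turn, with adjusted p up to 0.0259.

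Other protein-coding members included IRF1, KLF5, ZNF436, HIST1H3A and HIST1H3C, of which only HIST1H3A fell under the rule for named genes. IRF1, an interferon-induced transcription factor, measured 0.484, 0.395 and 0.388 FPKM in control, 1.06, 1.75 and 1.62 with cadmium, 2.89, 3.51 and 4.04 with DES and 0.702, 1.18 and 0.770 with both (interaction -3.45 ± 0.43, adjusted p = 0.00888). KLF5, a Krüppel-like factor of epithelial cells, gave 1.56 ± 0.32 without DES and -1.64 ± 0.32 with it (interaction -3.20 ± 0.45, adjusted p = 0.0135). ZNF436, a zinc finger protein, gave 0.89 ± 0.20 and -0.88 ± 0.20 (interaction -1.76 ± 0.28, adjusted p = 0.0207), and with the replicate block neither effect passed (adjusted p = 0.0555 and 0.0606). Members that code for no known protein were SSSCA1-AS1, whose name marks an antisense RNA, and SNORD72 and RF00019, which are under 200 bases and held at most 21 and 5 fragments per library. Both were at 0 fragments with DES and cadmium. With cadmium alone SNORD72 held 3 in each library against 1, 0 and 0 in control and RF00019 held 3, 4 and 2 against 2, 0 and 0, at or near the floor of 3, so the sizes and directions fitted for them rest on a few fragments. With the replicate block the rises of SSSCA1-AS1 and RF00019 with cadmium alone did not pass (adjusted p = 0.0532 and 0.0504).

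Of the histone H3 genes of the cluster on chromosome 6, a group looked at after the values were seen, 5 had a called interaction. HIST1H3B, HIST1H3E, HIST1H3F and HIST1H3I did not (adjusted p = 0.26, 0.35, 0.58 and 0.90). HIST1H3C measured 1.73, 0.921 and 0.883 FPKM in control, 3.61, 3.59 and 2.81 with cadmium, 19.9, 15.6 and 17.6 with DES and 4.99, 6.14 and 7.50 with both, so that cadmium without DES raised it and cadmium with DES lowered it (1.48 ± 0.27 and -1.51 ± 0.27, interaction -2.99 ± 0.38, adjusted p = 0.00888). HIST1H3H, HIST1H3J and HIST1H3A had interactions of -3.14 ± 0.48, -3.32 ± 0.44 and -4.20 ± 0.59 (adjusted p = 0.0175, 0.0108 and 0.0134), HIST1H3A on at most 34 fragments per library. The fall of HIST1H3A with DES and cadmium (adjusted p = 0.0455) did not pass with the replicate block (adjusted p = 0.0541). HIST1H3G had an interaction of -2.15 ± 0.45 (adjusted p = 0.0481). A separate list of replication-dependent histones, which holds none of these 5 called genes, had 17 of its 33 names in the table and 15 tested. Of these, 7 lost their rise and 1 interaction was called (HIST1H2AE, -2.10 ± 0.39, adjusted p = 0.0332), beside 7.35% lost and 1.16% called over all genes tested. HIST1H2AE measured 6.60 to 7.42 FPKM in control, 27.98 to 39.1 with cadmium, 37.2 to 59.4 with DES and 35.1 to 68.4 with both, a loss without reversal. The list's median difference was 1.53 with cadmium alone and 0.40 with DES and cadmium. Histone mRNAs mostly lack a poly-A tail, and the libraries were made by poly-A capture.

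Reversal from a fall was seen at the unadjusted threshold only, for 52 genes, 20 of which DES lowered and 0 of which it raised, beside 8.71% lowered and 11.7% raised over all genes tested. Low values in the DES libraries favour both a fall with DES and a rise when cadmium follows it, so these counts carry no test. NUP210, a membrane protein of the nuclear pore, measured 20.7, 29.6 and 22.5 FPKM in control, 9.82, 5.76 and 8.48 with cadmium, 11.02, 7.29 and 7.04 with DES and 19.3, 11.7 and 12.8 with both. Its effects of -1.60 ± 0.28 (adjusted p = 0.0215) and 0.78 ± 0.28 (adjusted p = 0.197) gave an interaction of 2.38 ± 0.40 (adjusted p = 0.0223). Interactions were also called for SELENON, a selenoprotein of the endoplasmic reticulum (2.19 ± 0.36, adjusted p = 0.0218), VPS51, a tethering protein of the Golgi (1.84 ± 0.32, adjusted p = 0.0275), HGSNAT, a lysosomal acetyltransferase (2.02 ± 0.37, adjusted p = 0.0332), TEX261, which takes part in export from the endoplasmic reticulum (2.01 ± 0.39, adjusted p = 0.0378), and GRM4, a glutamate receptor (1.90 ± 0.38, adjusted p = 0.0413). All 5 had a negative effect of cadmium without DES, between -1.49 and -1.10, and a positive one with it, between 0.50 and 0.90. TXNRD2, the mitochondrial thioredoxin reductase, gave -1.20 ± 0.33 and 0.95 ± 0.33 with an interaction of 2.16 ± 0.47 that did not pass (adjusted p = 0.0544). DHRS2, a mitochondrial reductase, was reversed from a rise at the unadjusted threshold and lost at the adjusted one. It measured 0.246, 0.326 and 0.0881 FPKM in control, 2.42, 5.16 and 3.85 with cadmium, 2.21, 3.17 and 15.6 with DES and 0.749, 0.792 and 2.07 with both (interaction -5.69 ± 0.94, adjusted p = 0.0219).

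**Figure D4:**
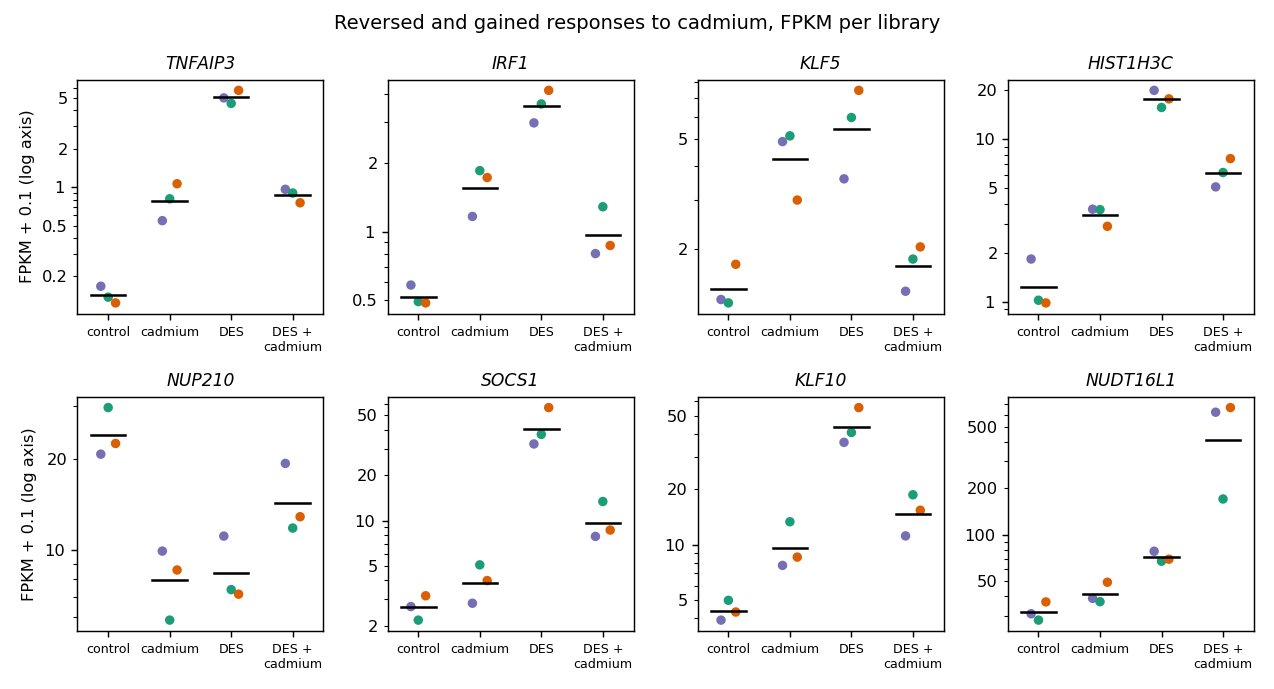
FPKM + 0.1 on a log axis in each of the 12 libraries, with replicates 1, 2 and 3 in purple, green and orange and the bar at the mean of the logarithms. In TNFAIP3, IRF1, HIST1H3C, SOCS1 and KLF10 the 3 DES libraries are the highest of all and those with DES and cadmium lie below them, in KLF5 cadmium and DES overlap above the others, while NUP210 goes the other way and NUDT16L1 is highest with both.

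Gained responses held 863 falls of 1048 at the unadjusted threshold (582 of 958 under quantile normalization) and 80 of 83 at the adjusted one (44 of 49), and DES had raised 414 of the 863 and 56 of the 80, beside 11.7% of all genes tested. High values in the DES libraries favour both calls, so this count carries no test. SOCS1, an inhibitor of cytokine signalling through JAK kinases, named after its values were seen, measured 2.58, 2.08 and 3.07 FPKM in control, 2.72, 4.98 and 3.90 with cadmium, 32.2, 37.3 and 56.3 with DES and 7.75, 13.3 and 8.55 with both. The effect of cadmium was 0.54 ± 0.30 without DES (adjusted p = 0.362) and -2.08 ± 0.30 with it (adjusted p = 0.00858), the interaction being -2.62 ± 0.43 (adjusted p = 0.0215). KLF10, a Krüppel-like factor induced by TGF-beta, measured 3.80, 4.90 and 4.22 FPKM in control, 7.62, 13.2 and 8.47 with cadmium, 35.7, 40.4 and 55.2 with DES and 11.1, 18.5 and 15.3 with both (interaction -2.68 ± 0.38, adjusted p = 0.0135). It was gained at the adjusted threshold and reversed at the unadjusted one, where cadmium alone also passed (1.13 ± 0.27). EGLN2, an oxygen-sensing prolyl hydroxylase named after its values were seen, measured 1.17 to 1.43 FPKM in control, 1.58 to 2.24 with cadmium, 4.94 to 7.01 with DES and 1.13 to 1.502 with both, the last overlapping control (interaction -2.61 ± 0.33, adjusted p = 0.00888).

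The 8 gained falls of the rule were RNAs that code for no known protein. AC073210.1, a pseudogene, was at 1.91, 2.30 and 3.90 FPKM with DES and at 0 in all 3 libraries with both, where at most 15 fragments stood in any DES library (interaction adjusted p = 0.00611). The intergenic RNA AC138393.3 went from 4.40, 11.6 and 8.32 FPKM with DES to 0.109, 0 and 0.481 with both (interaction adjusted p = 0.0218), and the antisense RNA AC100830.2 from 7.55, 7.56 and 8.05 to 0, 0.902 and 0.229 (interaction adjusted p = 0.0323). In control AC138393.3 lay between 0.845 and 3.35 FPKM, and AC100830.2 between 0.252 and 1.29. AL117381.1 and AC092757.3 were called likewise, with interactions of -4.80 and -4.98 (adjusted p = 0.014 and 0.0398). AC092757.3 held at most 3 fragments in any library outside DES and passed the filter on low values only through that group, so nothing is read from its call. Such RNAs often overlap other genes.

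Gained rises were fewer. NUDT16L1, which binds the DNA repair protein 53BP1, had 30.8, 27.99 and 36.8 FPKM in control, 38.7, 36.9 and 49.3 with cadmium, 78.3, 67.5 and 69.6 with DES and 622.7, 170.8 and 667.4 with both. Cadmium raised it with DES by 2.53 ± 0.42 (adjusted p = 0.0128) and differed by 0.38 ± 0.42 without (adjusted p = 0.672), and the interaction of 2.15 ± 0.59 did not pass (adjusted p = 0.0925). AC026461.3, an intergenic RNA annotated from 56609501 on chromosome 16, next to the end of MT2A, was at 0 in control and in DES, held at most 2 fragments with cadmium, and measured 6.44, 3.09 and 12.4 FPKM with both, at least 20.5-fold above DES. It passed the filter on low values only through that group, so nothing is read from its called interaction (adjusted p = 0.0352).

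Described by lists of genes with a known role, the responses of stress and signalling genes were as follows. Of 26 immediate early and AP-1 genes tested, which respond first to growth and stress signals, 5 were lost, 1 reversed, 1 gained and 7 undecided (7.35%, 1.51%, 7.08% and 8.58% over all genes tested), and the median difference was 1.02 without DES and -0.07 with it. FOSB, a partner of JUN, measured 0.173 to 0.281 FPKM in control, 0.901 to 3.78 with cadmium, 0.446 to 1.37 with DES and 0.974 to 1.09 with both (interaction -2.40 ± 0.73, adjusted p = 0.117). KLF4, the pluripotency factor and the only one of the 10 pluripotency and related genes measured by the study that passed the filter, had 5.29, 3.95 and 7.53 FPKM in control, 6.79, 13.0 and 14.9 with cadmium, 9.19, 12.2 and 11.2 with DES and 5.95, 7.31 and 11.002 with both. Its interaction was -1.47 ± 0.48 (adjusted p = 0.139). ESRRB, the receptor of the study's title, was at 0.257 FPKM or less in all 12 libraries and was not tested. ESRRA, its most abundant relative here, had 10.4 to 38.7 FPKM and an interaction of 0.38 ± 0.49 (adjusted p = 0.712).

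Among the 27 NRF2 genes tested, 5 were lost: GCLM (a subunit of the enzyme that starts glutathione synthesis), TXNRD1 (thioredoxin reductase), OSGIN1, UGDH and MAFG, with interactions between -1.78 and -1.28 and adjusted p between 0.066 and 0.237, UGDH passing with the replicate block (adjusted p = 0.0373). DES raised none of these 5 at the adjusted threshold, beside 11.7% raised over all genes tested. FTL, the ferritin light chain, was kept, at 1.08 ± 0.32 and 0.85 ± 0.32. Interactions in the list ran from -2.72 to 1.05, with 0 called, and cadmium alone raised 1 gene at the adjusted threshold. HMOX1 held 898, 264 and 13868 fragments in control, which disagreed, and 8579, 39945 and 96949 with cadmium. With DES it held 6263, 8785 and 3492, and with both 28624, 10617 and 23452. Among the 30 genes of the integrated stress response, 5 were lost, 1 reversed and 2 gained. PPP1R15A, which restarts translation after stress, gave 2.90 without DES and 0.25 with it, and ATF3 2.88 and -0.05, both raised by DES itself (4.64 and 4.39, adjusted p = 0.00106 and 0.00465). DDIT3, the stress factor CHOP, had an interaction of -3.08 ± 0.98 (adjusted p = 0.129), and ASNS, the asparagine synthetase, one of -2.86 ± 0.80 (adjusted p = 0.0959). Of 21 genes of the unfolded protein response 3 were lost. In the list of Notch, TGF-beta and MAPK regulators 2 were lost (TGFB2, CDKN2B), 2 reversed (the Notch ligands DLL4 and JAG1) and 2 gained, of 25, and the interactions of DLL4 and JAG1 passed with the block (adjusted p = 0.0476 and 0.0398). Over all genes tested these shares were 7.35% lost, 1.51% reversed and 7.08% gained.

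The study's own list of genes raised in common by calcium, cadmium and GSK4716, an agonist of these receptors, was chosen on these samples and is no independent evidence of its direction. Of its 33 members tested, 18 were lost and 2 reversed (7.35% and 1.51% over all genes tested), and the median difference was 1.68 without DES and -0.12 with it. That second median was 0.21 under quantile normalization. ADAMTS1, a secreted metalloprotease, was the member with a called interaction (-2.55 ± 0.46, adjusted p = 0.0323), at 4.30 to 8.42 FPKM with cadmium, 5.25 to 9.09 with DES and 2.32 to 4.37 with both. NOV, a matricellular protein, had 0.673 to 1.06 FPKM in control, 2.67, 18.7 and 11.2 with cadmium, 3.37, 5.79 and 5.56 with DES and 3.44, 5.02 and 3.65 with both (interaction -3.41 ± 0.79, adjusted p = 0.0616, and 0.0421 with the replicate block). FUT3, a fucosyltransferase, and BEST1, a chloride channel, differed little between DES and control (-0.01 ± 0.39 and 0.07 ± 0.62) and gave 1.80 and 2.64 without DES against -0.02 and -0.19 with it. Of the 36 tested members of the matching list of lowered genes, 1 was kept, 3 were lost and 22 undecided (1.23%, 7.35% and 8.58% over all genes tested), with medians of -1.70 and -0.50. PRRT1B, described above, was the member with a called interaction.

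Neither cell cycle list held a called interaction. In the G1/S list (46 tested) the median difference was -1.87 without DES and -0.61 with it, 3 genes were lost (CDC25A, POLD3 and POLE) and 30 undecided, beside 7.35% and 8.58% over all genes tested, and in the G2/M list (51 tested) the medians were -2.05 and -1.62 with 0 lost. The libraries of a group disagreed here. Summed over the G2/M list they held 688.6, 755.5 and 106.3 FPKM with cadmium and 1674.4, 141.5 and 1249.7 with both, against 766.4 to 1211.7 in control and 1235.1 to 1298.3 with DES. Cadmium replicate 3 and DES with cadmium replicate 2 were thus the low ones. The median interaction of the G2/M list was 0.26, and it was -1.14 without the former and 1.68 without the latter. For the G1/S list it was 1.29, and 0.69 and 2.14 without them, while the median effect of cadmium with DES became 0.16 without the latter. Fewer dividing cells and less RNA of these genes per cell cannot be told apart in bulk RNA.

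The interaction was positive for 20 of 24 cholesterol synthesis genes, 17 of 28 hypoxia and glycolysis genes and 16 of 22 ERR metabolic targets. Over all genes tested it was positive for 6676 of 14793, and their median turned positive under quantile normalization. In the cholesterol synthesis list (24 tested) the interaction was higher at the unadjusted threshold for 5 genes and lower for 0, with 3 falls lost (MVK, CYP51A1 and EBP). EBP, a sterol isomerase, gave -1.67 without DES and 0.40 with it (interaction 2.07 ± 0.54, adjusted p = 0.083). In the hypoxia and glycolysis list (28 tested) it was higher for 8, all of them glycolytic enzymes (GAPDH, ENO1, TPI1, PGAM1, PKM, GPI, PFKL and HK1), and lower for 2, ADM and ANKRD37. Of these enzymes, GPI and PFKL were reversed, with effects of -0.55 and -0.60 without DES and 0.68 and 0.52 with it (interaction adjusted p = 0.0765 and 0.069). In the list of ERR metabolic targets (22 tested) it was higher for 4 (UQCRC1, COX5A, NDUFS7 and CPT1A) and lower for 0. All 28 ribosomal protein genes had a positive interaction, with a median of 0.66 (0.34 under quantile normalization, where that of cadmium with DES fell from 0.39 to 0.01). Of these, 2 passed at the unadjusted threshold, 8 with the replicate block, and 0 without control replicate 1, 2 or 3, cadmium replicate 2 or 3, DES replicate 2 or 3, or DES with cadmium replicate 1, against 13 without DES replicate 1. None of these lists held a called interaction, but with the replicate block MVK and ADM did (adjusted p = 0.0367 and 0.0457). Over all genes tested the interaction passed that threshold as higher for 6.81% and as lower for 12%, an order that turned under quantile normalization. In the androgen response list (12 tested) 1 gene, PIP, was lost (interaction -3.79 ± 0.92, adjusted p = 0.0694, and 0.0306 with the block), in the estrogen response list (14 tested) 3 were lost and AREG, an EGF receptor ligand, was reversed, and in the autophagy and proteasome list (30 tested) 2 were lost, GABARAPL1 and ATG14, beside 7.35% lost and 1.51% reversed over all genes.

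**Figure D5:**
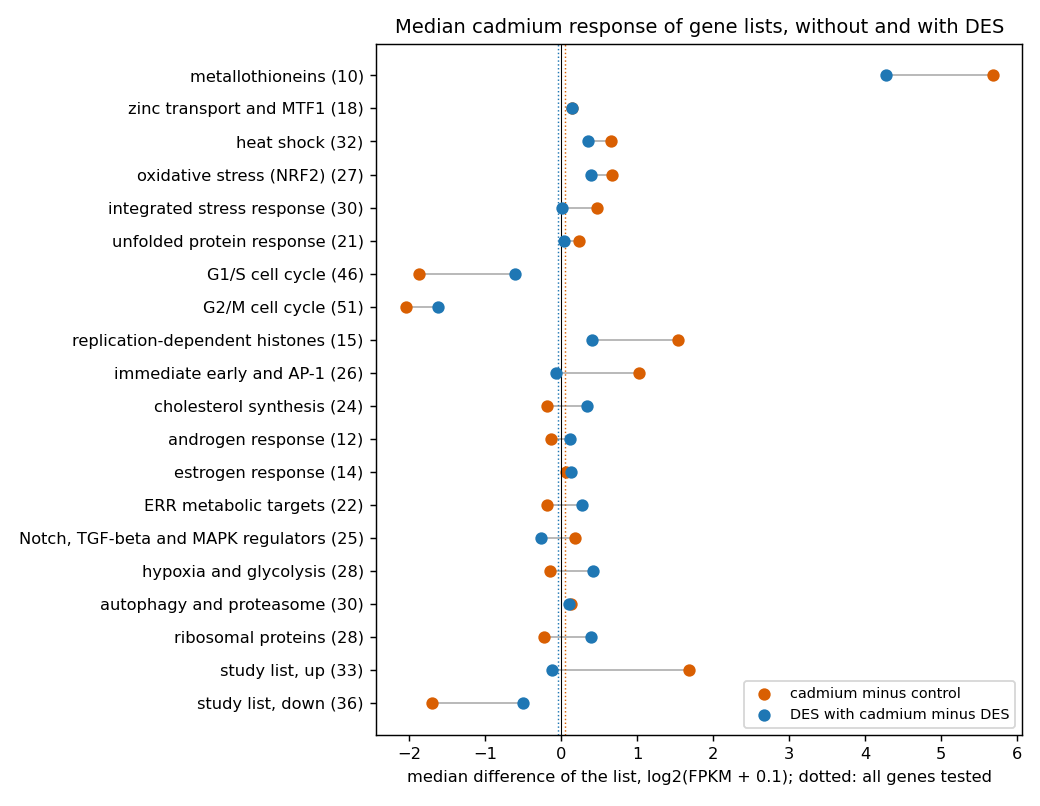
For each list, with the number of genes tested in brackets, the orange point is the median effect of cadmium without DES and the blue point that with DES, as differences of log2(FPKM + 0.1), and the dotted lines are the medians of all genes tested. The blue point is nearer to zero than the orange one for histones (0.40 against 1.53) and the study's list of raised genes (-0.12 against 1.68). Metallothioneins stay high in both (4.27 and 5.68), over sets of genes that are not the same. Scaling by total fragments turns the sign of the blue point for the integrated stress response, unfolded protein response, zinc transport, androgen, estrogen, and autophagy and proteasome lists. Quantile normalization does so for the first 2 of these and the study's list of raised genes.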

How the data were processed

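Messenger RNA of MDA-MB-453 cells was captured by poly-A and sequenced by the authors, who deposited FPKM values per gene and library. Per the submitters' processing notes, HISAT2 2.0.5, featureCounts 1.5.0-p3 and the build GRCh38.p14 were used. The protocol names dUTP as well as dTTP synthesis, so strand is not known, and genes that overlap others are uncertain. The study's methods name DESeq2 and edgeR, which were not run here, and the main fit used the deposited FPKM values. FPKM multiplied by gene length gave whole fragments (within 0.05) for 100% of values, and 3 fragments per library served as the floor of a fold.

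The fit was limma 3.58.1 (R 4.3.3, lmFit, then eBayes with trend) to log2(FPKM + 0.1) of the 12 libraries with 4 group means, over genes whose mean FPKM was 0.5 or more. All tests were two-sided, and Benjamini-Hochberg adjustment ran over all 14793 genes, with a threshold of 0.05. Further steps ran in Python 3.11.15 (pandas 2.3.3, numpy 2.4.6) with plots by matplotlib 3.10.9. The steps were tested on simulated data. The members, the 21 gene lists and 2 marker lists, and the classes were chosen with earlier results of these data known. Named genes have a mean FPKM of at least 1 and at least 200 bases: the 10 largest called interactions in each direction, the 8 largest responses of each class and direction, and list members. Any other gene is said to be named after its values were seen, as were IRF1, KLF5, ZNF436, SNORD72, RF00019, SSSCA1-AS1, HIST1H3H, HIST1H3J, HIST1H3C and HIST1H3G. Equal replicate numbers of DES and DES with cadmium deviated together (correlations 0.465, 0.127 and 0.303), those of control and cadmium did not all (0.0453, 0.052 and 0.146).

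Alternatives were a pseudocount of 1, no filter, a filter at FPKM 2, scaling by median ratio, total fragments or quantiles, all 7 groups in one fit, only the 2 groups compared, arrayWeights, limma-voom on the recovered fragments, the replicate number as a block, a log2 fold change of at least 1, each library left out, and, added after seeing the data, a mean of at least 10 recovered fragments.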

Additional observations from a re-analysis of the deposited data

Results flagged for a closer look

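The effect of cadmium with DES differed from that without it, by the test of the interaction, for 171 genes, and the named genes among them are given here by their interaction on the log2 scale. Negative values were TNFAIP3 -5.0, IRF1 -3.45, KLF5 -3.2, KLF10 -2.68, SOCS1 -2.62, EGLN2 -2.61 and ZNF436 -1.76 among regulators that DES raised, HIST1H3A -4.2, HIST1H3J -3.32, HIST1H3H -3.14, HIST1H3C -2.99, HIST1H3G -2.15 and HIST1H2AE -2.1 among histones, HSPA6 -8.09, MT1E -7.08, DHRS2 -5.69, ZKSCAN7-AS1 -5.67, EGR4 -5.56, EDN1 -2.68, ADAMTS1 -2.55 and NFKB2 -1.44 among other named genes, and SNORD72 -10.07 and RF00019 -7.84 (on at most 21 and 5 fragments per library), and AC108693.2 -6.52, AC138393.3 -5.86, RF00017 -5.71, AC100830.2 -5.61, AC073210.1 -5.52, AC092757.3 -4.98, AL117381.1 -4.8, AC068473.5 -4.04 and SSSCA1-AS1 -2.85 among RNAs that code for no known protein. Positive values were CCND3 1.57, VPS51 1.84, ITPKA 1.89, GRM4 1.9, IKBKE 1.91, TEX261 2.01, HGSNAT 2.02, BACE1 2.11, SELENON 2.19, GAMT 2.23, PTGES2 2.27, P3H4 2.35, KCTD17 2.36, NUP210 2.38, ATF5 2.41, PRRT1B 3.19, MARVELD1 3.27, HNRNPA1L2 3.33 and AC026461.3 4.2, which was near 0 fragments outside DES with cadmium. RF00017 and AC092757.3 held at most 4 and 3 fragments in any library outside DES and passed the filter only through that group, so nothing is read from their calls. With 3 libraries per group, single libraries were not tested as outliers.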

How the results depend on the processing

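Of 434 gene results recomputed under 25 alternatives, 0 changed direction in 10150 values, 1421 lost a call and 214 gained one. Of 51 named genes called in the interaction, 8 were called without each of the 12 libraries in turn. With 3 libraries per group, leaving out 1 moved the interaction between 10 and 410 genes, cadmium against control between 14 and 762, DES with cadmium against DES between 42 and 472, and DES against control between 1467 and 4254. The counts kept, lost, reversed and gained moved between 113 and 296, 739 and 1584, 131 and 320, and 692 and 1518. Cadmium against control gave 32, 33 and 70 without control replicates 1, 2 and 3, 762, 14 and 46 without the cadmium replicates in that order, 146 and 190 without DES replicates 2 and 3, and 579 without DES with cadmium replicate 1, and it was also over 1.5 times higher without replicate 2 of that group. DES with cadmium against DES gave 42 and 67 without DES replicates 2 and 3, and DES against control 1467, 1489 and 1794 without the control replicates and 1540 and 2011 without DES replicates 2 and 3.

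The interaction was called for 402 genes with a pseudocount of 1, 62 with no filter, 90 at a mean FPKM of at least 2 and 836 with all 7 groups in one fit. With the replicate block it was called for 289, with 11 named interactions called only with the block and 1 (ITPKA) only without it. Since the numbers of control and cadmium do not pair, this block is a hint from the numbers only, and it gave 70 higher interactions in place of 34 and 100 lost responses at the adjusted threshold in place of 52. Cadmium against control gave 143 with no filter, 596 under quantile normalization, 1050 with all 7 groups and 122 with only the 2 groups. DES with cadmium against DES gave 579 with a pseudocount of 1, 111 at a mean FPKM of at least 2, 641 with all 7 groups, 48 with only the 2 groups and 212 with limma-voom. Kept genes were 301 under quantile normalization and 288 with all 7 groups, lost genes 1880 and gained genes 1746 with no filter, and reversed and gained genes 146 and 570 at a mean FPKM of at least 2. With arrayWeights, whose weights did not converge and ran from 0.13 to 8.58, the 4 comparisons gave 6312, 8036, 3620 and 9253 and the 4 classes 1532, 3562, 1662 and 1762. The causes were not tested. The filters test fewer or more genes and a fit of 7 groups holds more libraries.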
